A study of Mus musculus with 6 samples.

Results

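The genes described here encode the voltage sensor, the calcium release channel and the scaffold proteins of the skeletal muscle triad. They are *Cacna1s*, *Cacnb1*, *Cacna2d1*, *Cacng1*, *Stac3*, *Ryr1*, *Trdn*, *Jph1*, *Jph2* and *Bin1*, chosen by name from the gene symbols, and all 10 were found among the 37979 genes measured. RNA came from the whole gastrocnemius (GAS) muscle of 3 wildtype (WT) and 3 Kvβ2 knockout (KO) male mice, 20 weeks of age and untreated, with 1 library per mouse. The libraries carry the replicate numbers 1, 7 and 8 in each genotype, and sets of 3 values are given in that order throughout. The KO mice carry a germline null allele of *Kcnab2*, which encodes the potassium channel β-subunit Kvβ2, on both chromosomes. The WT mice came from the same kind of cross between heterozygous carriers, the deletion is not limited to muscle, and the strain is not given in the sources used here. The comparison of KO with WT asks whether loss of Kvβ2 goes along with other levels of the transcripts that link the action potential to calcium release.

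A triad is the contact between a transverse tubule (T-tubule), an inward fold of the surface membrane, and the terminal cisternae of the sarcoplasmic reticulum (SR) on its sides. Depolarization of the T-tubule moves the voltage sensor of the dihydropyridine receptor (DHPR), and this opens the ryanodine receptor RyR1 in the SR membrane by direct mechanical coupling, so that calcium reaches the myofilaments. Junctophilins hold the membranes together, triadin anchors the release complex to calsequestrin in the SR lumen, and BIN1 bends membrane into tubules.

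Levels are given as FPKM, the fragments of a gene divided by its transcript length in kilobases and by the mapped fragments of the library, so that levels of different genes can be set side by side. The libraries held an estimated 14790000 to 19240000 fragments in the KO and 20580000 to 21580000 in the WT mice, so that a single fragment from 1 kilobase of transcript amounts to 0.0463 to 0.0676 FPKM. The triad genes were far above this, with a lowest single value of 32.6 FPKM. *Kcnab2* was at 0.233, 0.10 and 0.110 FPKM in the WT mice. Among the KO mice, replicate 7 had 0.0151 FPKM and the other two were listed at 0. The KO libraries therefore lay below the WT libraries for the deleted gene (two-sided exact permutation p = 0.1, which is the smallest p possible with 3 against 3). The labelled tissue had its defining transcripts, since the 14 markers of skeletal fibers summed to 38325 to 55421 FPKM in WT and to 56648 to 62981 FPKM in KO muscle, although *Myh4* and *Tnnt3* were listed at 0 in all 6 libraries, which in this table need not be an absence. None of the triad genes was listed at 0 in any library.

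In WT muscle *Trdn* had the highest level of the 10 genes and *Cacnb1* the lowest, with means of 540.1 and 38.7 FPKM, which placed them at ranks 93 and 1071 of the 12334 tested genes over all libraries. The order of the WT means between them was *Cacna1s*, *Bin1*, *Stac3*, *Ryr1*, *Cacng1*, *Cacna2d1*, *Jph2* and *Jph1*. Neighbours in this order overlapped in their 3 WT values, except for *Trdn* above *Cacna1s*, *Cacng1* above *Cacna2d1* and *Jph1* above *Cacnb1*. In KO muscle *Ryr1* stood in the third place of the order rather than the fifth, and the means of *Cacna2d1* and *Cacnb1*, at 57.1 and 56.9 FPKM, were nearly equal. These orders are of FPKM as deposited, and levels followed GC content differently in each library, as described below. Each level is 1 value per gene, so isoform differences are not seen. GENCODE vM21 lists from 1 transcript for *Cacng1* to 12 for *Cacna2d1*, but the annotation release behind the FPKM is not given.

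**Figure D1:**
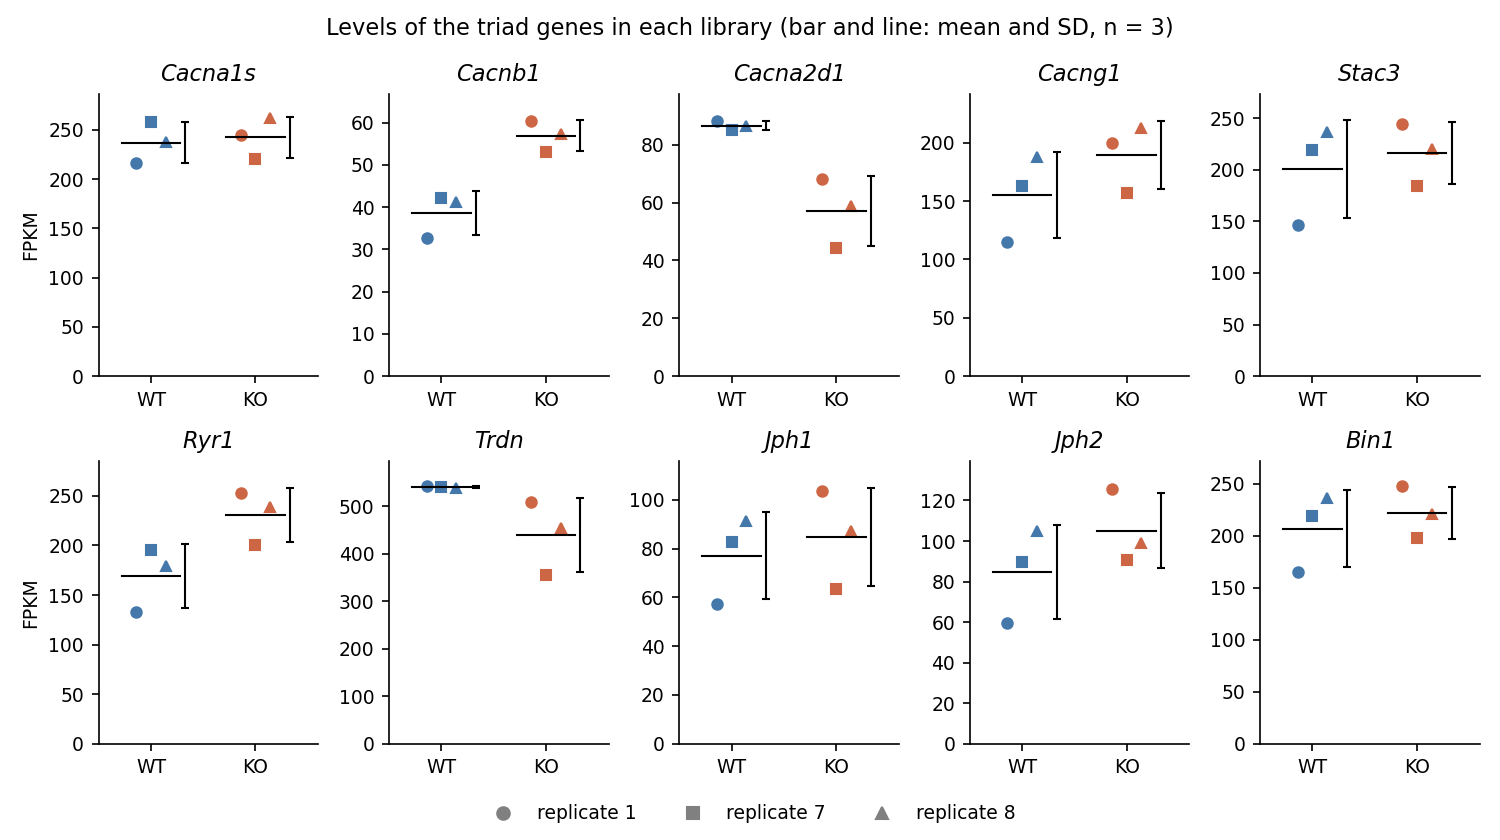
FPKM (vertical axes, from 0) of the 10 triad genes in the 3 WT (blue) and 3 KO (orange) libraries; the marker gives the replicate number, the horizontal bar the mean and the line beside it the SD (n = 3). The KO points lie above the WT points for *Cacnb1* and *Ryr1* and below them for *Cacna2d1* and *Trdn*, and the points of the other 6 genes overlap.

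Differences were tested with limma on log2(FPKM + 0.1) over all 12334 tested genes, with Benjamini-Hochberg adjustment and a threshold of 0.05 for the adjusted p. Of the 10 triad genes, 0 were called in either direction by this test. Over all tested genes, 31 were called higher (0.251%) and 9 lower (0.073%) in the KO mice, and these were 16 and 9 after scaling the libraries to the same median and 11 and 7 after quantile normalization. With limma's array weights, which give each library its own weight, *Cacnb1* was called higher and *Cacna2d1* lower, while 15.1% of all tested genes were called higher and 10.4% lower. At an unadjusted p under 0.05, *Cacnb1* and *Ryr1* were higher and *Cacna2d1* was lower, against 15.3% and 10.9% of all tested genes. The median log2 fold change was 0.13 over the 10 genes and 0.01 over all tested genes. In whole muscle, fewer fibers of a kind and less RNA per fiber cannot be told apart.

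The pore and voltage sensor of the DHPR is the α1S subunit, encoded by *Cacna1s* (ENSMUSG00000026407, chromosome 1, 136052750 to 136119822, plus strand, GRCm38). It was at 216, 258 and 237 FPKM in the WT mice, and 245, 221 and 262 FPKM in the KO mice. The genotypes overlapped across nearly their whole range. The log2 fold change was 0.03 (standard error 0.12, limma adjusted p = 0.879), and its 95% confidence interval from -0.24 to 0.31 still allows differences of that size in either direction. Scaling the libraries to the same median gave -0.03.

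The β1 subunit, encoded by *Cacnb1* (ENSMUSG00000020882, chromosome 11, 98001508 to 98023034, minus strand), binds α1S from the cytoplasm and is needed to bring it to the triad. Its level was 32.6, 42.1 and 41.3 FPKM in the WT mice and 60.3, 53.1 and 57.3 FPKM in the KO mice. Every KO library lay above every WT library, and the KO mean was 1.47 times the WT mean. The log2 fold change of 0.56 (standard error 0.13, limma adjusted p = 0.0750) was the largest positive one among the 10 genes and did not pass the threshold.

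The α2δ1 subunit, encoded by *Cacna2d1* (ENSMUSG00000040118, chromosome 5, 15934691 to 16374511, plus strand), is the extracellular subunit, which takes part in the trafficking and gating of calcium channels. *Cacna2d1* was at 88.2, 85.1 and 86.3 FPKM in the WT mice, and 68.2, 44.3 and 58.6 FPKM in the KO mice. The WT libraries were nearly equal, and all KO libraries were lower and spread more widely. The log2 fold change was -0.62 (standard error 0.16, limma adjusted p = 0.0869), and the KO mean was 0.659 of the WT mean.

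The γ1 subunit, encoded by *Cacng1* (ENSMUSG00000020722, chromosome 11, 107703218 to 107716522, minus strand), is a membrane protein of the DHPR that limits calcium entry. It was at 115, 163 and 188 FPKM in the WT mice, and 199.8, 157 and 213 FPKM in the KO mice, so KO replicate 7 fell within the WT range. Its log2 fold change was 0.31 (95% confidence interval -0.17 to 0.78, limma adjusted p = 0.367), and it was 0.11 without WT replicate 1.

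*Stac3* (ENSMUSG00000040287, chromosome 10, 127501686 to 127508823, plus strand) encodes an adaptor protein that the DHPR needs for its place at the triad and for coupling to RyR1. Its FPKM were 146, 219 and 236 in the WT mice and 245, 184 and 219.9 in the KO mice. WT replicate 1 was the lowest, and the other 5 libraries of the genotypes were interleaved. *Stac3* had a log2 fold change of 0.13 (95% confidence interval -0.34 to 0.60, limma adjusted p = 0.709).

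*Ryr1* (ENSMUSG00000030592, chromosome 7, 29003344 to 29125179, minus strand) encodes the calcium release channel of the SR. It was at 133, 196 and 179 FPKM in the WT mice, and 253, 200.1 and 239 FPKM in the KO mice. All KO libraries were above all WT libraries, with a narrow gap between KO replicate 7 and WT replicate 7. The log2 fold change was 0.46 (standard error 0.17, limma adjusted p = 0.153), and it was 0.29 without WT replicate 1.

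The sequence at the RefSeq start is shown for *Cacnb1* and *Ryr1*, the genes with the largest positive log2 fold changes, for *Cacna2d1*, with the most negative one, and for *Cacna1s*, whose genotypes overlapped most, so that genes of the same protein complexes can be compared. RefSeq starts on GRCm38.p6 were at hand for 5 of the 10 genes, and windows of 250 bases before the most upstream start in that table were searched. GENCODE vM21, from which the gene coordinates above come, has the same start for *Cacna2d1* but places that of *Ryr1* 28 bases, that of *Cacna1s* 61 bases and that of *Cacnb1* 407 bases further upstream, so the *Cacnb1* window lies wholly inside its GENCODE gene and the other 2 windows reach into theirs. Each line runs 5′ to 3′ on the strand of the gene, and the line of *Cacna1s* stops after 189 bases, at its GENCODE start. The lines come from chr11:98022628-98022877 (minus strand), chr7:29125152-29125401 (minus strand), chr5:15934441-15934690 (plus strand) and chr1:136052561-136052749 (plus strand). Capitals mark E-boxes (CANNTG, the core to which myogenic factors bind) and GC boxes (GGGCGG on either strand, the core to which SP1 binds), and capitals run together where GC boxes overlap.
*Cacnb1*: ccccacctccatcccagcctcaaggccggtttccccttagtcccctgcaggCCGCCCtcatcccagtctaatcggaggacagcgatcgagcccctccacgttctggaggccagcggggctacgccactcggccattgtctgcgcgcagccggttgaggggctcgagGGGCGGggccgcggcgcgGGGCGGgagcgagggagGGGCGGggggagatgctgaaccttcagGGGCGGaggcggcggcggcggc
*Ryr1*: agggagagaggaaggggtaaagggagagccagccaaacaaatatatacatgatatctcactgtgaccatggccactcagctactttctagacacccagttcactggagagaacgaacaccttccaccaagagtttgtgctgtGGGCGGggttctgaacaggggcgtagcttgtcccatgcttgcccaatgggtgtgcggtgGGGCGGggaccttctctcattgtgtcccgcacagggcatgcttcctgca
*Cacna2d1*: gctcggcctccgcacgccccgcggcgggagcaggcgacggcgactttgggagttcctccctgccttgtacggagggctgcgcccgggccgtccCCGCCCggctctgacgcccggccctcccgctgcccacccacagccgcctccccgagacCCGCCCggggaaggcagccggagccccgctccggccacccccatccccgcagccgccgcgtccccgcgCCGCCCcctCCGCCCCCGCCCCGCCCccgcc
*Cacna1s*: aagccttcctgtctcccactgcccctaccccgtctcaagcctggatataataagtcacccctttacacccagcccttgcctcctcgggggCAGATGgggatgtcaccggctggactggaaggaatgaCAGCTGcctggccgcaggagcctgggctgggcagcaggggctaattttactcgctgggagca

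The *Cacnb1* window held 5 GC boxes and the *Cacna2d1* window 6, at a GC content of 73.2% and 82.4%, so these genes with opposite differences had the windows richest in GC among the 4 shown. The windows of *Ryr1* and *Cacna1s* held 2 and 1 GC boxes, at a GC content of 54.8% and 62.4%, the one of *Cacna1s* past the end of the printed line. An E-box was found in the window of *Cacna1s*, with 2 matches at 160 and 123 bases before the RefSeq start, the second of them CAGCTG, and in 0 of the other windows printed. The window of *Jph2*, searched but not printed, held CAGCTG at 9 bases and a GC box at 17 bases before its RefSeq start. Of the 27025 windows of this length in the RefSeq table, 66.1% held an E-box, 12.7% held CAGCTG and 33% held a GC box, and the median GC content was 52.0%. CTA and TAG separated by 4 bases, a core to which MEF2 factors bind, was in 3.23% of all windows and in none of the 5 windows of triad genes searched. These matches describe letters of the reference and say nothing of binding.

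*Trdn* (ENSMUSG00000019787, chromosome 10, 33080554 to 33476709, plus strand) encodes triadin, an SR membrane protein that binds RyR1 and calsequestrin. Its level was 542, 540.2 and 538 FPKM in the WT mice and 508, 356 and 454 FPKM in the KO mice. The SD over the WT libraries was 2.10 FPKM against 77.1 FPKM over the KO libraries (n = 3 each), and all KO libraries were lower. KO and WT differed by a log2 fold change of -0.31 (standard error 0.14, limma adjusted p = 0.216), and it ranged from -0.42 to -0.17 with each library left out in turn, the latter without KO replicate 7.

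Of the junctophilins, *Jph1* (ENSMUSG00000042686, chromosome 1, 16964560 to 17097889, minus strand) is the form of skeletal muscle, while *Jph2* (ENSMUSG00000017817, chromosome 2, 163336242 to 163397993, minus strand) is shared with the heart. *Jph1* was at 57.2, 82.7 and 91.5 FPKM in the WT mice, and 104, 63.4 and 87.2 FPKM in the KO mice. *Jph2* was at 59.4, 89.8 and 105 FPKM in the WT mice, and 126, 90.8 and 98.8 FPKM in the KO mice. Both genes overlapped between the genotypes, with WT replicate 1 the lowest library of each. The log2 fold changes were 0.13 for *Jph1* (limma adjusted p = 0.737) and 0.34 for *Jph2* (limma adjusted p = 0.371), with 95% confidence intervals of -0.41 to 0.68 and -0.19 to 0.86. For *Jph2* it was 0.10 without WT replicate 1, 0.20 without KO replicate 1 and 0.51 without WT replicate 8.

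*Bin1* (ENSMUSG00000024381) encodes the membrane-bending protein of the T-tubule. It was at 165, 219 and 236 FPKM in the WT mice, and 248, 198 and 221 FPKM in the KO mice. The KO libraries other than replicate 1 lay within the WT range, and the log2 fold change was 0.11 (95% confidence interval -0.26 to 0.49, limma adjusted p = 0.678).

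Counted over the 10 genes, 2 had all KO libraries above all WT libraries and 2 had them below, against 18.3% and 16.2% of all tested genes. Exact permutation tests of these 4 genes gave p = 0.1, the smallest value possible, which follows from the lack of overlap alone. They gave 0.3 to 0.7 for the other 6. The libraries of a genotype also differed from each other in a shared way. WT replicate 1 was the lowest WT library for 8 of the 10 genes, and KO replicate 7 was the lowest KO library for all 10. Among all tested genes these libraries were the lowest of their genotype for 45.2% and 42.4%. Without WT replicate 1 the median log2 fold change of the 10 genes was -0.04, and without KO replicate 7 it was 0.28.

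**Figure D2:**
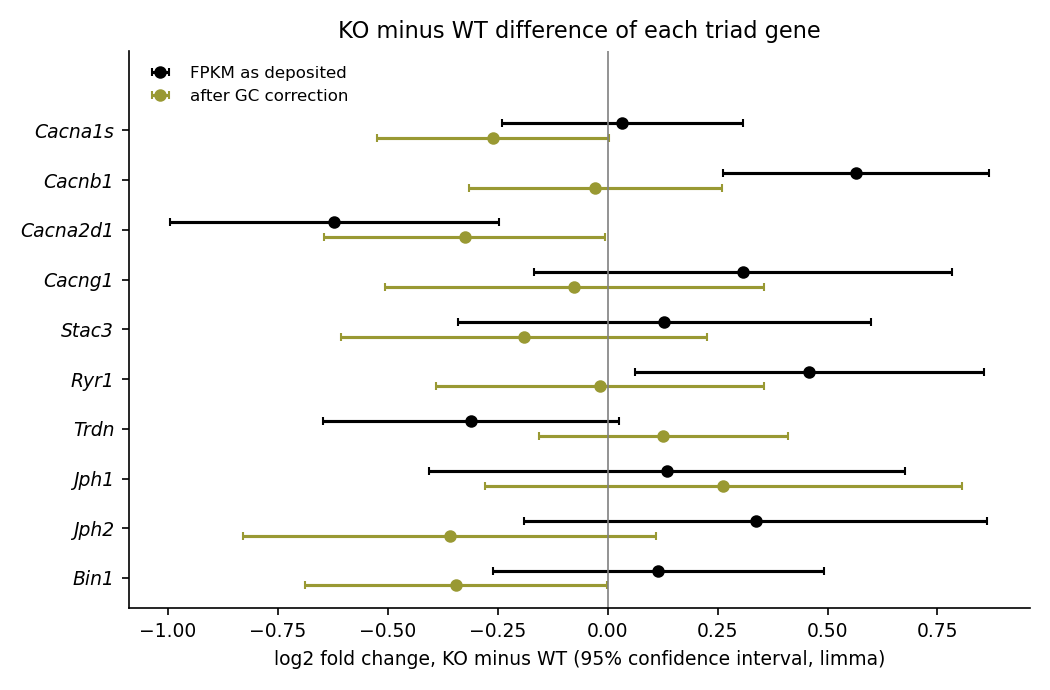
Log2 fold change, KO minus WT, of each triad gene with its 95% confidence interval from limma, for FPKM as deposited (black) and after the correction of each library for GC content (olive). The black values run from -0.62 for *Cacna2d1* to 0.56 for *Cacnb1*, and the olive ones from -0.36 for *Jph2* to 0.26 for *Jph1*.

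The differences of the 10 genes followed the GC content of their exons. *Trdn*, at 37.8% GC, and *Cacna2d1*, at 42.4%, were the genes with the lowest GC content and the only ones of the 10 with a negative log2 fold change. *Cacnb1* had 59.4% and *Ryr1* 57.3% GC, while *Jph2* had the most at 62.0%. Spearman's rho between GC content and log2 fold change was 0.83 over the 10 genes and 0.70 over 11985 tested genes of known GC content, as a description across genes that share the same 6 libraries. In classes of GC content over all tested genes, the median log2 fold change was -0.41 under 40%, -0.28 at 40% to 45%, -0.11 at 45% to 50%, 0.14 at 50% to 55%, 0.45 at 55% to 60% and 0.68 at 60% or more. *Cacna2d1*, at -0.62, *Jph2*, at 0.34, and *Bin1*, at 0.11, each lay below the median of their class by a like amount. *Cacng1*, *Cacna1s* and *Stac3* also lay below theirs, *Stac3* only slightly. *Ryr1* lay close to its class median, *Cacnb1* and *Trdn* lay somewhat above theirs, and *Jph1*, at 0.13, lay above the median of -0.11.

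The same trend separated the libraries. The median deviation of genes of at least 55% GC minus that of genes under 45% GC, each from the mean of the 6 libraries on the log2 scale, was 0.27, 0.58 and 0.32 in KO and -0.63, -0.31 and -0.21 in WT replicates 1, 7 and 8. The genotypes did not overlap, with KO replicate 7 and WT replicate 1 at the ends. Genotype and this trend cannot be told apart in these 6 libraries.

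When each library was corrected for the trend, 2 of the 10 genes had a positive log2 fold change, *Jph1* with 0.26 and *Trdn* with 0.13, and 0 of the 10 passed the threshold (limma adjusted p from 0.458 to 0.980). *Cacnb1* and *Ryr1* came to log2 fold changes of -0.03 and -0.02, and their libraries then overlapped between the genotypes. *Cacna2d1* kept its direction, with a corrected log2 fold change of -0.33 (standard error 0.14, limma adjusted p = 0.458), and all its KO libraries stayed below all WT libraries. *Cacna1s* had a corrected log2 fold change of -0.26 (standard error 0.11, limma adjusted p = 0.469), also without overlap, where the uncorrected values had overlapped. *Jph2* and *Bin1* had corrected log2 fold changes of -0.36 and -0.34 (limma adjusted p = 0.568 and 0.465), with overlap. The correction takes out any part of a genotype difference that follows GC content, whatever its source. The share of all tested genes without overlap after the correction was not computed. A lack of overlap among corrected values, here and below, therefore has no background to be set against.

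**Figure D3:**
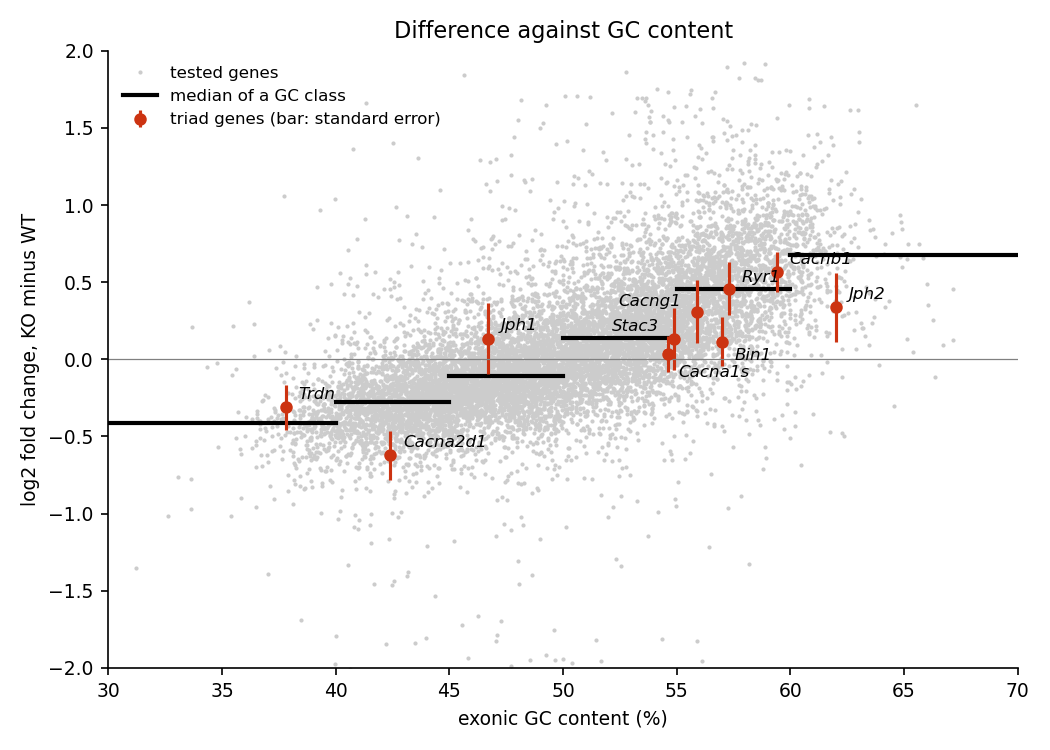
Log2 fold change, KO minus WT, against exonic GC content (%) for tested genes (grey, with 147 genes outside the axes), medians of GC classes (black lines) and the 10 triad genes (red, bars are standard errors). The medians rise from -0.41 under 40% GC to 0.68 at 60% GC or more. *Cacna2d1*, *Jph2* and *Bin1* lie furthest below the lines of their classes.

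Ratios within a library do not depend on its scaling, and were formed after the values had been seen. The ratio of *Ryr1* to *Cacna1s*, the release channel over its voltage sensor, was 0.614, 0.760 and 0.754 in the WT mice and 1.03, 0.907 and 0.911 in the KO mice. All KO ratios were above all WT ratios (two-sided exact permutation p = 0.1), and the log2 ratio was higher by 0.43. The ratio of *Cacnb1* to *Cacna1s* was 0.151, 0.163 and 0.174 in the WT mice and 0.246, 0.241 and 0.219 in the KO mice, a difference of 0.53 on the log2 scale. These 2 differences were 0.24 and 0.23 after correction for GC content, and neither ratio then overlapped between the genotypes. After the correction *Ryr1* and *Cacnb1* were themselves at -0.02 and -0.03 with overlap, and *Cacna1s* was at -0.26 without overlap. The corrected differences of these ratios thus lie mainly in *Cacna1s*, their shared denominator.

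For the α2δ1 subunit, the ratio of *Cacna2d1* to *Cacna1s* was 0.408, 0.330 and 0.364 in the WT mice and 0.278, 0.201 and 0.224 in the KO mice, a log2 difference of -0.66. It came to -0.06 after the correction for GC content, with overlap. *Trdn* over *Ryr1* was 4.08, 2.76 and 3.01 in the WT mice and 2.01, 1.78 and 1.90 in the KO mice, a log2 difference of -0.77. After the correction this difference was 0.14, with overlap. *Jph1* over *Jph2* overlapped between the genotypes as deposited, with a log2 difference of -0.20, and had a corrected difference of 0.62 with all KO ratios above all WT ratios. *Jph1* and *Jph2*, of 46.7% and 62.0% GC, each overlapped after the correction, with log2 fold changes of 0.26 and -0.36. The correction therefore turned the sign of this ratio difference. Of 8 ratios compared, 5 did not overlap between the genotypes as deposited, the fifth being *Cacna2d1* over *Cacnb1* with a log2 difference of -1.19 (-0.30 corrected). Each of these 5 holds a gene whose own libraries did not overlap, so they are no separate result. The share without overlap among ratios of other genes was not computed. The smallest Benjamini-Hochberg adjusted value over the 8 exact permutation tests was 0.16. *Cacng1* and *Stac3* over *Cacna1s* overlapped, with log2 differences of 0.27 and 0.10.

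**Figure D4:**
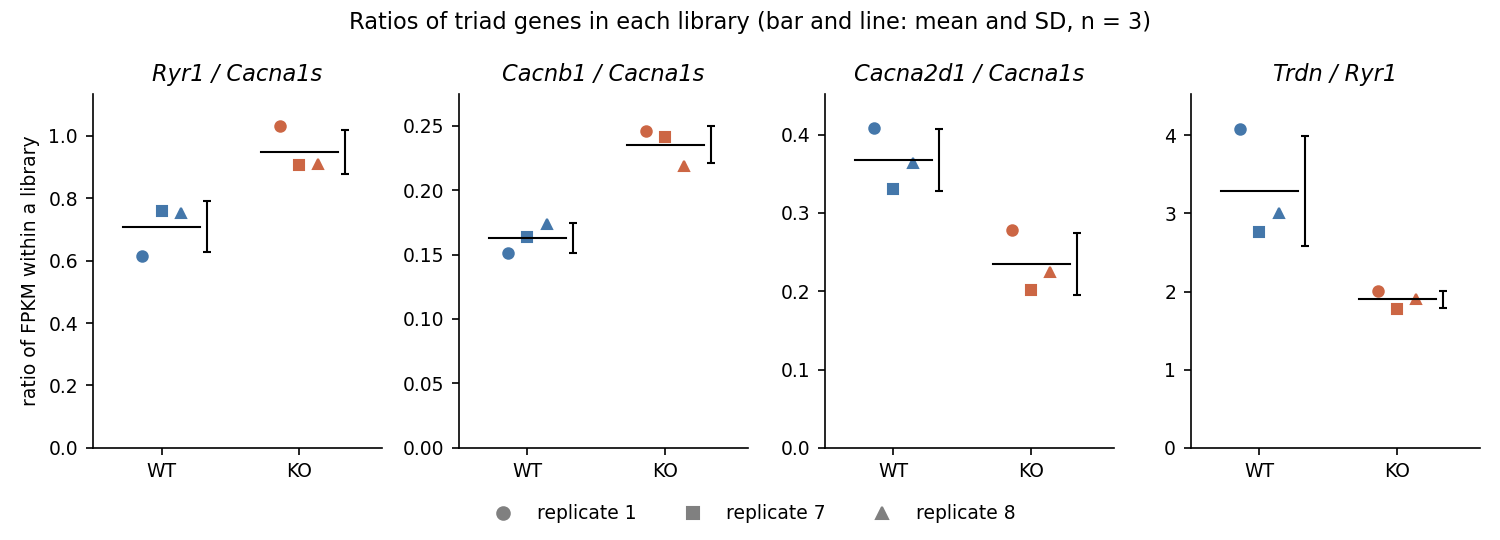
Ratio of the FPKM of triad genes within each library (vertical axes, from 0, no unit) for WT (blue) and KO (orange); markers give the replicate number, bars the mean and lines the SD (n = 3). The KO ratios lie above the WT ratios for *Ryr1* / *Cacna1s* and *Cacnb1* / *Cacna1s*, and below them for *Cacna2d1* / *Cacna1s* and *Trdn* / *Ryr1*.

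A further 3 lists covered the rest of the machinery, and 0 of their genes were called in either direction. Of 20 partners of the release channel and proteins of the junctional SR, 19 were tested, and 4 were higher and 2 lower at an unadjusted p under 0.05, near the 15.3% and 10.9% of all tested genes. *Orai1*, the plasma membrane channel of store-operated calcium entry, was at 3.85, 4.87 and 6.28 FPKM in the WT mice, and 10.2, 10.3 and 9.70 FPKM in the KO mice. The log2 fold change of *Orai1* was 1.02 (standard error 0.18, limma adjusted p = 0.0667) as deposited and 0.37 with the GC correction, without overlap of the genotypes in either case. *Jsrp1*, which encodes the DHPR-binding SR protein JP-45, had a log2 fold change of 0.79 (limma adjusted p = 0.0667), with 63.7% GC and a corrected value of 0.06. *Speg*, a kinase of the triad region, had 0.68, and *Sepn1*, the SR selenoprotein, had 0.70, with corrected values of -0.03 and 0.25. *Calm2*, a calmodulin gene of 43.6% GC, had -0.57 (limma adjusted p = 0.0962) and -0.31 after the correction. The median of this list was 0.02.

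Of 10 genes of the T-tubule membrane, all were tested, 5 were higher and 0 lower at an unadjusted p under 0.05, against 15.3% and 10.9% of all tested genes, and their median log2 fold change was 0.33, or -0.03 with the GC correction. *Pacsin3*, a membrane-bending protein, was at 51.3, 71.0 and 76.2 FPKM in the WT mice, and 107, 112 and 104 FPKM in the KO mice, a log2 fold change of 0.72 (standard error 0.16, limma adjusted p = 0.0750). *Ehd1*, *Trim72*, *Dnm2* and *Dysf*, which act in membrane trafficking, fission and repair, had log2 fold changes of 0.72, 0.42, 0.41 and 0.29. After the correction *Pacsin3* and *Ehd1* were at 0.14 and 0.16, and the other 3 genes were at -0.20, -0.01 and -0.06, with the KO libraries of *Trim72* then below all WT libraries.

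The paralogs of the triad genes, many of which serve heart, brain or other tissues, were mostly at low levels. Of the 20 genes, 15 were under the filter with at most 0.735 FPKM in any library, among them the cardiac forms *Cacna1c* and *Ryr2*, and *Jph3* was listed at 0 in all libraries. As for *Myh4* and *Tnnt3*, a listed 0 need not be an absence. Of the 5 tested genes, *Cacng6*, a γ subunit of calcium channels, was at 7.60, 11.4 and 15.6 FPKM in the WT mice, and 25.0, 24.0 and 20.9 FPKM in the KO mice. No WT library reached a KO library, and the log2 fold change came to 1.06 (standard error 0.24, limma adjusted p = 0.0750). *Cacng6* has 54.3% GC, and its corrected log2 fold change was 0.78 (standard error 0.21, limma adjusted p = 0.30), still without overlap. *Ryr3*, *Cacng7*, *Bin3* and *Cacna2d4* had log2 fold changes of -0.39, 0.36, 0.23 and -0.35, and each overlapped between the genotypes.

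Markers of other cells and fibers were read beside these values. The 5 adipocyte markers summed to 3.84 to 17.4 FPKM in WT and 18.4 to 83.4 FPKM in KO muscle, and all 5 had a positive log2 fold change. The 4 smooth muscle markers summed to 19.7 to 24.6 FPKM in WT and to 30.4 to 50.8 FPKM in KO muscle, and the 2 satellite cell markers to 0.665 to 0.745 and 0.763 to 1.24 FPKM. For these lists and for the fiber markers the KO sums lay above the WT sums, and 0 of their tested genes were called. All sums are of FPKM as deposited, without the correction for GC content. Of the 12 fiber markers tested, 11 had a positive log2 fold change, and *Pvalb* was at -0.15. Among the adipocyte markers *Adipoq* and *Lep* overlapped between the genotypes, while *Plin1*, *Cidec* and *Retn* did not. Both satellite cell markers were under the filter and not tested. Of them *Pax7* overlapped, at 0.340, 0.396 and 0.529 FPKM in the WT mice and 0.446, 0.362 and 0.446 FPKM in the KO mice. *Myf5* was at 0.325, 0.328 and 0.216 FPKM in the WT mice and 0.797, 0.401 and 0.386 FPKM in the KO mice. Endothelial, fibroblast, macrophage, cardiac, nerve sheath and red blood cell markers overlapped between the genotypes in their sums. The slow fiber gene *Myh7* was at 24.3, 22.1 and 0.0513 FPKM in the WT mice, and 15.2, 50.5 and 77.4 FPKM in the KO mice, so the libraries differed in their slow fiber RNA. The part of these differences in the levels of the triad genes was not tested.

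By the likeness of their log2 levels over the 6 libraries, the genes closest to *Cacna1s* among 6076 genes of at least 5 FPKM were *Thoc5*, *Josd1* and *Pex19*, with Pearson's r of 0.98, 0.98 and 0.96. Those closest to *Ryr1* were *Ppp2r1a*, *Sema6c* and *Prrc2b*, each with r of 0.99, and those closest to *Stac3* were *2810405K02Rik* with 1.00 and *Eif4ebp2* and *Camk2a* with 0.99. With 6 libraries and this many genes, values this high describe the shape of the profiles, which WT replicate 1 leads as the lowest library of these 3 triad genes.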

How the data were processed

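RNA of the GAS muscles of 3 WT and 3 KO mice was sequenced from libraries made with a stranded mRNA kit, as paired reads. According to the methods and labels, TopHat aligned the reads to GRCm38, and the authors deposited FPKM from Cufflinks for 37979 genes. The versions, the annotation release and the strand setting are not given in the sources used here, so fragments of antisense genes that share exons with 5 of the 10 members cannot be told apart from theirs. Depth was estimated from low FPKM values of genes with 1 transcript, of which 90.8% to 95.0% fell within 0.15 of a whole fragment. The 12334 genes whose mean reached 0.5 FPKM entered a limma fit (version 3.58.1, R 4.3.3) of log2(FPKM + 0.1) with a variance trend, all 6 libraries and no covariate, after a check on simulated data, and single values by two-sided exact permutation tests (scipy 1.17.1). Genes were called at a Benjamini-Hochberg adjusted p under 0.05. Coordinates and exonic GC content came from GENCODE vM21 (GRCm38), which held 97.2% of tested genes. For the GC correction, each gene's deviation from its own mean over the 6 libraries was taken. A loess curve (span 0.3) of these deviations against GC content was subtracted in each library. Promoter windows came from RefSeq, GRCm38.p6. The members and lists were chosen with earlier results of these data known. Named genes are the members, the up to 5 genes of lowest p of each further list and any of these listed at 0, and the 3 genes closest in profile to *Cacna1s*, *Ryr1* and *Stac3*. Other genes named (markers and 2 cardiac paralogs) and the ratios were chosen after their values were seen. Alternatives are given in the closing section. Each library was from 1 mouse. Figures were drawn with matplotlib 3.10.9.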

Additional observations from a re-analysis of the deposited data

How the results depend on the processing

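Across 20 alternatives, 0 of the 10 triad genes were called except with limma's array weights, which called *Cacnb1* higher (log2 fold change 0.47, adjusted p = 0.0116) and *Cacna2d1* lower (-0.56, adjusted p = 0.0120), 1 gene in each direction, while calling 15.1% of all tested genes higher and 10.4% lower. *Cacna2d1* kept its direction in all 20. The correction for GC content, alone or with the replicate block, reversed *Cacna1s* (-0.26), *Cacnb1* (-0.028), *Cacng1* (-0.076), *Ryr1* (-0.018), *Stac3* (-0.19), *Jph2* (-0.36), *Trdn* (0.13) and *Bin1* (-0.34), and moved the median of the 10 genes to -0.13. *Cacna1s* also turned to -0.033 with median scaling, -0.020 with quantile normalization, -0.010 with array weights and -0.016 with the length correction, which put *Stac3* at -0.0046. The causes of these reversals were not tested. With each library left out in turn, log2 fold changes ran from -0.031 to 0.10 for *Cacna1s*, -0.084 to 0.26 for *Stac3*, -0.066 to 0.33 for *Jph1* and -0.040 to 0.22 for *Bin1*. WT replicate 1 turned all 4, KO replicate 8 also *Cacna1s* and KO replicate 1 also *Jph1*. Over all tested genes, 31 calls higher and 9 lower became 7 and 4 with a pseudocount of 1 FPKM, 9 and 11 with no filter, 145 and 22 with a filter at 5 FPKM, 1 and 0 without genes listed at 0 in any library, 16 and 9 with median scaling, 11 and 7 with quantile normalization, 12 and 7 without the variance trend, 1863 and 1284 with array weights, 10 and 9 with the length correction, 6 and 8 with the GC correction, 6 and 7 with the replicate block and 5 and 7 with both. With each library left out they ran from 6 to 19 higher and 5 to 19 lower. Without KO replicate 1 or 8 or WT replicate 1 or 7, 6 were higher, without KO replicate 7, 9, and without WT replicate 8, 19. Same-numbered KO and WT libraries did not deviate together (correlations of -0.107, -0.089 and -0.0020 over 12092 genes), and none correlated best with its own number. Whether libraries of the same number share a litter, cage or batch is not stated in the labels and was not tested. The replicate block changed no call of a triad gene. *Kcnab2* stayed lower in the KO mice under every alternative run for it, but the size of its log2 difference is set by the pseudocount, at -3.44 with 0.01 FPKM, -1.20 with 0.1 FPKM (with or without the replicate block) and -0.19 with 1 FPKM. The FPKM rest on 14790000 fragments or more per library, and 3 mice per genotype set the precision.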
